A study of Mus musculus with 10 samples.

Results

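The 10 genes described here encode the cytokine TNF, 3 receptors of its family and 6 proteins that form, restrain or act with the transcription factor NF-kappaB. They were chosen by name, as *Tnf*, *Tnfrsf1a*, *Tnfrsf1b*, *Tnfrsf12a*, *Tnfaip3*, *Nfkbia*, *Nfkbiz*, *Nfkb1*, *Nfkb2* and *Relb*. All 10 were among the 15900 genes listed, and all 10 passed the filter on low values that left 15851 genes for testing. Cap analysis of gene expression (CAGE), which sequences the capped 5′ ends of RNA, was applied to whole hippocampi of male ICR mice aged 9 to 10 weeks. In the labels the pre-SE mice are untreated, and in the study's methods control mice received saline in place of pilocarpine (PILO). The other mice received methyl scopolamine and then PILO at 290 mg/kg, which causes status epilepticus (SE), followed by diazepam to end it. SE 6 h and SE 2 days mice received no levetiracetam (LEV), an antiseizure drug that binds the synaptic vesicle protein SV2A. SE + LEV 6 h mice had received oral LEV at 360 mg/kg 1 time, and SE + LEV 2 days mice 5 times. Each of the 5 groups held 2 mice, named replicates 1 and 2.

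TNF is made as a protein of the cell surface, from which the protease ADAM17 releases it, and it signals through 2 receptors. Receptor signalling activates kinases that mark IkappaB proteins for destruction, and NF-kappaB dimers then enter the nucleus and start transcription of chemokines, adhesion molecules and their own inhibitors. In the brain, microglia and blood-derived myeloid cells are known sources of TNF, and NF-kappaB is active in glia, endothelium and neurons.

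Each gene had 1 value in each mouse, in CPM, which is its tag count relative to all tags on the 15900 genes of that library. The tag totals recovered from them ran from 10540698 to 51710968 per library, a ratio of 4.91, and the same CPM rests on fewer tags in a shallower library. Differences between groups (logFC) are on the log2(CPM + 0.1) scale, which understates the change of genes with low CPM. They come from 1 limma fit of all 10 libraries with Benjamini-Hochberg adjustment over the 15851 genes, and a gene was called at an adjusted p of at most 0.05. All 11 neuronal marker genes were detected in every library. With 2 mice against 2, the smallest two-sided exact permutation p for a single gene is 0.333, and the calls draw on a spread that limma estimates over many genes and all groups. In such tissue samples, more cells of a type and more RNA per cell cannot be told apart.

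The promoters of the genes are shown first, because CAGE counts transcripts at their starts and because NF-kappaB binds DNA at kappaB motifs. RefSeq promoter windows (GRCm38.p6, 250 bases before and 50 bases from the annotated start) were matched for 7 of the 10 genes, in 10 windows, and *Nfkbiz*, *Nfkb1* and *Relb* had no match. Both strands were searched for the kappaB motif of 10 bases and for the AP-1 motif TGANTCA. The kappaB motif was present in windows of 3 of the 7 genes, which were *Tnfaip3*, *Nfkbia* and *Nfkb2*. These are genes of inhibitors and of an NF-kappaB subunit, and the window of *Tnf* is printed beside them as 1 without a match. The 250 bases before the start are given 5′ to 3′ on the strand of the gene, with matches to either motif in capitals.
*Nfkb2* (start 1, plus strand, chr19:46304487-46304736): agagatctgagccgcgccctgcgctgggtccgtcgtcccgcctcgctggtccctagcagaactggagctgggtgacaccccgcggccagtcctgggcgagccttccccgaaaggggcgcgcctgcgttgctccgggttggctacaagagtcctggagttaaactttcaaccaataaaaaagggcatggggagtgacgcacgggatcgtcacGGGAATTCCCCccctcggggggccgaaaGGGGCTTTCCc
*Nfkbia* (minus strand, chr12:55492648-55492897): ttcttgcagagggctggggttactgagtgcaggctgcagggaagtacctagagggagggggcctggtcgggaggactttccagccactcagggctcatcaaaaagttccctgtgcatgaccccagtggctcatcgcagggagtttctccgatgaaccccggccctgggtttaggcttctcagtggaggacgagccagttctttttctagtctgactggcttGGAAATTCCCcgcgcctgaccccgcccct
*Tnfaip3* (start 1, minus strand, chr10:19015411-19015660): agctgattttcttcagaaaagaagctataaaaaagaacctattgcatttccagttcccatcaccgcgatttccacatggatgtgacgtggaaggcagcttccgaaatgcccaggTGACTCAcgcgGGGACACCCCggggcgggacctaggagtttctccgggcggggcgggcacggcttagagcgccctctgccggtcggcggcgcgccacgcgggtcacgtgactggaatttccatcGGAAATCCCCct
*Tnf* (minus strand, chr17:35202008-35202257): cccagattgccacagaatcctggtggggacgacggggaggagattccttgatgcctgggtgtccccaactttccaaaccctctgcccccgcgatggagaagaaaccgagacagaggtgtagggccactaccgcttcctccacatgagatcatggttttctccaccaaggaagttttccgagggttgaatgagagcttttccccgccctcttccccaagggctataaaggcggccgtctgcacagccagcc

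In *Nfkb2* start 1 a run of 11 capitals from 39 to 29 bases before the start held overlapping kappaB matches, 1 of which, GGGAATTCCC, reads the same on both strands. The second stretch, GGGGCTTTCC, lay from 11 to 2 bases before the start. In *Nfkbia* the match lay from 29 to 20 bases before the start, and in *Tnfaip3* start 1 matches lay from 125 to 116 and from 12 to 3 bases before it. The other windows of *Nfkb2* also held the kappaB motif, with GGGACTTTCC in the part that start 2 and start 3 share. AP-1 matches were found in *Tnfaip3* start 1, as TGACTCA, and in *Nfkb2* start 2, as TGAATCA. The windows of *Tnf*, *Tnfrsf1a*, *Tnfrsf1b* and *Tnfrsf12a* held neither motif. Counted by gene, 3 of 7 members held the kappaB motif and 2 of 7 the AP-1 motif, beside 5.14% and 8.97% of 27025 genes. Counted by window, 5 of 10 held the kappaB motif, beside 4.51% of all 32851 windows of this length, and 7.81% of all windows held the AP-1 motif. A match describes the letters of the window and does not show that a factor binds there.

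**Figure D1:**
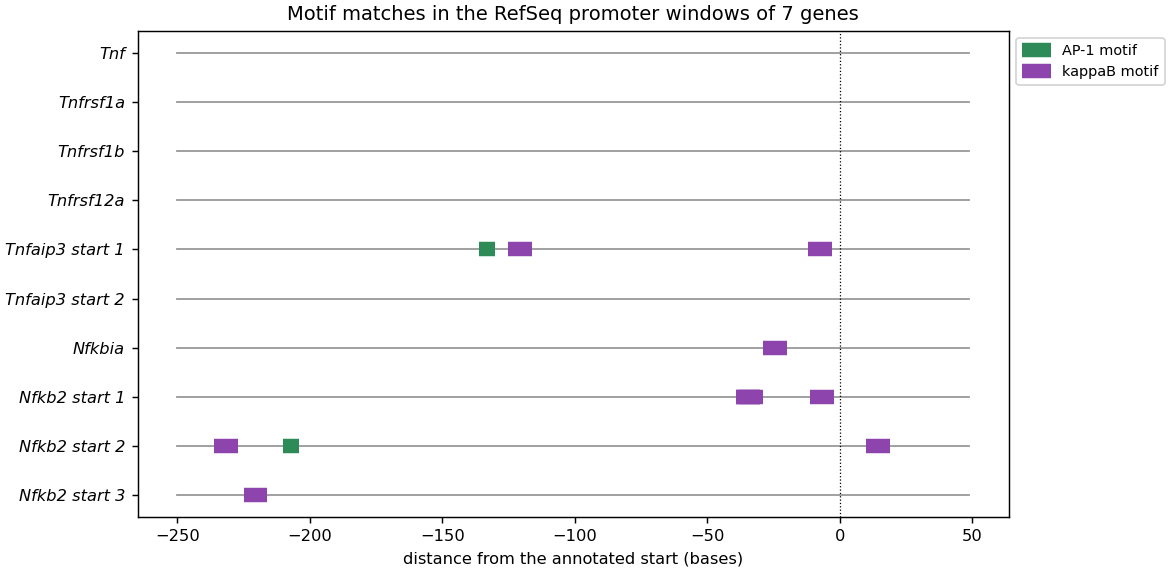
Positions of kappaB and AP-1 motif matches (coloured blocks) in the RefSeq promoter windows of 7 genes, against the distance from the annotated start in bases. KappaB matches are seen in *Tnfaip3* start 1, *Nfkbia* and all 3 starts of *Nfkb2*, and the windows of *Tnf* and the 3 receptor genes are empty.

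After SE, the genes of the ligand, of its main receptor and of 1 NF-kappaB subunit precursor were higher at both times. *Tnf*, *Tnfrsf1a* and *Nfkb2* passed the test at 6 h, and *Tnfrsf1b*, *Tnfrsf12a* and *Nfkbiz* joined them at 2 days. Thus 3 of 10 genes were called higher in SE 6 h mice, where 2.76% of all genes tested were, and 6 of 10 in SE 2 days mice, where 5.07% were. No member was called lower at 6 h or 2 days, beside 0.202% and 0.593% of all genes. At an unadjusted p under 0.05, 0 members were lower, beside 1349 and 1155 of the 15851 genes. edgeR on the recovered tags also called 0 members lower (0.126% and 0.423% of all genes), as did DESeq2 (0.625% and 2.19%). At these shares, a count of 0 among 10 genes does not set them apart from other genes. Both SE mice lay above both pre-SE mice for 9 of the 10 genes at 6 h (18.6% of all genes) and for 8 at 2 days (26.3% of all genes). The 10 genes had median logFC values of 1.37 (6 h) and 1.96 (2 days), beside -0.13 and -0.03 over all genes. Median-of-ratios scaling moved the median of all genes at 6 h to -0.0047 and kept all 10 genes positive. At 6 h DESeq2 called 8 members higher (6.36% of all genes), and limma without SE 6 h replicate 2 called 1 (0.681%). Without SE + LEV 2 days replicate 1 or replicate 2, limma called 6 (3.08% and 3.12% of all genes). At 2 days limma called 3 without pre-SE replicate 1 (1.94% of all genes) or SE 2 days replicate 2 (1.55%). DESeq2 called *Relb* at 2 days in addition to the 6 called by limma, and 1260 of the 15851 genes higher. The 2 comparisons share their pre-SE mice.

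**Figure D2:**
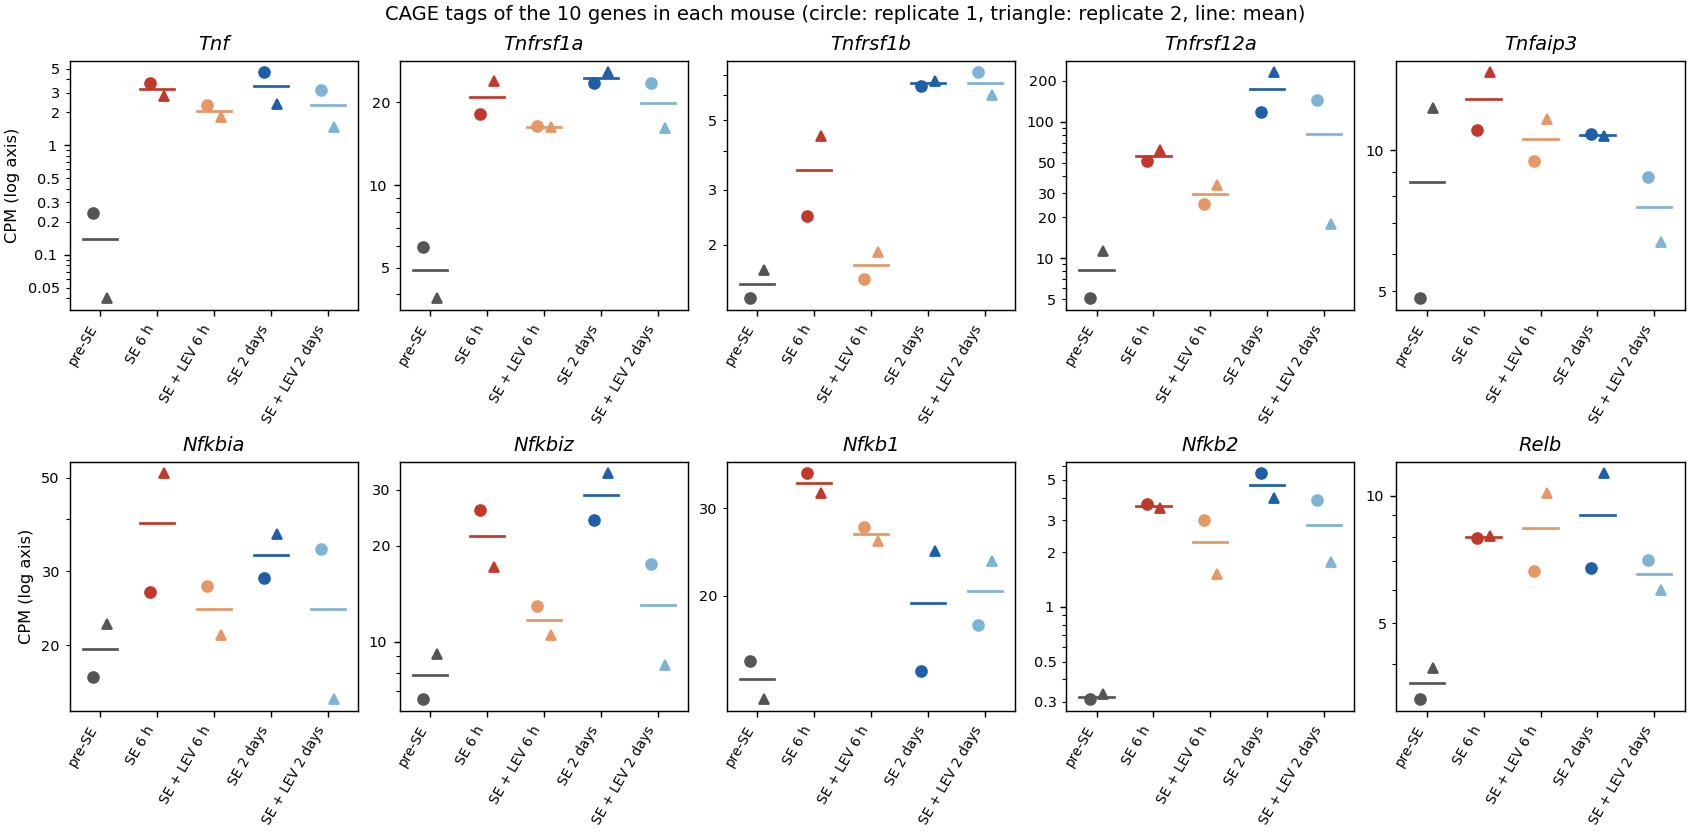
CPM of each of the 10 genes in each mouse on a log axis, by group, with circles for replicate 1, triangles for replicate 2 and a line at the mean of the 2 mice. *Tnf* and *Nfkb2* are under 0.4 CPM in pre-SE mice and above 1 CPM in every other mouse, whereas for *Tnfaip3* the pre-SE mice overlap with every other group.

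*Tnf* (ENSMUSG00000024401, mm9 chr17:35336326-35338952, minus strand) encodes the ligand. Its values were 0.24 and 0.04 CPM in the pre-SE mice, which rest on 7 and 2 tags. At 6 h after SE they were 3.72 and 2.81 CPM, and at 2 days 4.62 and 2.39 CPM. All SE mice thus lay far above both pre-SE mice, and the SE groups overlapped with each other. The logFC was 3.93 ± 0.56 (standard error) at 6 h (adjusted p = 0.0056, limma) and 3.97 ± 0.56 at 2 days (adjusted p = 0.0032, limma). These calls held in all 21 alternatives at both times. The size depends on the pseudocount, and the logFC ran from 1.90 with 1 CPM to 4.86 with 0.01 CPM at 6 h and from 1.94 to 4.90 at 2 days.

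*Tnfrsf1a* (ENSMUSG00000030341, mm9 chr6:125299380-125312502, plus strand) encodes the broadly expressed TNF receptor, whose death domain recruits the kinase RIPK1. Its CPM values were 5.97 and 3.87 before SE, 18.09 and 23.91 at 6 h after SE, and 23.49 and 25.74 at 2 days after SE. Pre-SE mice lay apart from both SE groups, which overlapped with each other. The mean rose 4.27-fold at 6 h, with a logFC of 2.09 ± 0.31 (standard error, adjusted p = 0.0075, limma). At 2 days it had risen 5.0-fold, with a logFC of 2.33 ± 0.31 (adjusted p = 0.0027, limma). Without pre-SE replicate 2 or SE 6 h replicate 2 the call at 6 h was lost (highest adjusted p = 0.0756, limma).

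*Tnfrsf1b* (ENSMUSG00000028599, mm9 chr4:144803366-144836773, minus strand) encodes the other TNF receptor, which lacks a death domain and is known from immune cells and microglia. The mice had CPM values of 1.35 and 1.66 before SE and 2.47 and 4.45 at 6 h after SE. In SE 2 days mice they were 6.44 and 6.69 CPM, above every mouse of the pre-SE and SE 6 h groups. The logFC was 1.10 ± 0.37 (standard error) at 6 h (adjusted p = 0.17, limma) and 2.06 ± 0.37 at 2 days (adjusted p = 0.011, limma), where the mean was 4.36-fold that of pre-SE mice. The call at 2 days was lost without pre-SE replicate 1 or SE 2 days replicate 2 (highest adjusted p = 0.0965, limma).

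The microglial marker genes, 8 of 8 detected, summed to 372 to 437 CPM before SE, 268 to 293 CPM at 6 h after SE and 865 to 1020 CPM at 2 days after SE. Those of infiltrating myeloid cells, 5 of 8 listed, summed to 2.03 to 2.32, 39.9 to 42.4 and 73.5 to 87.5 CPM in the same groups. Most of these sums after SE came from *Cd14* (34.29 and 29.05 CPM at 6 h, 29.59 and 27.37 CPM at 2 days) and *Msr1* (37.78 and 53.25 CPM at 2 days). *Plac8* overlapped with pre-SE mice at 6 h, and *S100a8* and *S100a9* did so at 2 days. No listed gene of either set was at 0 in any library, and *Ccr2*, *Ly6c2* and *Chil3* were not analysed here. The astrocyte sum (7 of 7 genes) was 2311 to 2456 CPM before SE, 2232 to 2685 CPM at 6 h and 3880 to 5673 CPM at 2 days, and the endothelial sum (6 of 6) was 60.1 to 67.6, 115 to 178 and 107 to 118 CPM. The oligodendrocyte sum (5 of 5) was 4466 to 5029, 3093 to 6029 and 1639 to 2456 CPM. The neuronal sum (11 of 11) was 5971 to 7367, 4646 to 6581 and 4357 to 4793 CPM, with 0 of the 11 genes called at either time (limma). The myeloid and endothelial sums were thus higher at both times, and the microglial and astrocyte sums were higher at 2 days. The oligodendrocyte and neuronal sums were lower at 2 days. The part of these marker genes in the results of the 10 genes was not tested.

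*Tnfrsf12a* (ENSMUSG00000023905, mm9 chr17:23812414-23814416, minus strand) encodes the receptor for the TNF-like cytokine TWEAK and is known as a gene induced by growth factors and injury. CPM values were 5.07 and 11.24 before SE, 51.16 and 61.53 at 6 h after SE, and 117.02 and 229.88 at 2 days after SE. The 3 groups did not overlap. The mean was 6.91-fold that of pre-SE mice at 6 h (logFC 2.88 ± 0.78 standard error, adjusted p = 0.088, limma). At 2 days it was 21.3-fold (logFC 4.42 ± 0.78, adjusted p = 0.0089, limma). Without pre-SE replicate 1 or SE 2 days replicate 2 the call at 2 days was lost (highest adjusted p = 0.11, limma). The gene overlaps *Hcfc1r1* on the opposite strand, and the use of strand in counting is not stated. *Tnfsf12*, which encodes TWEAK, had CPM values of 2.93 and 1.95 before SE, 1.41 and 1.78 at 6 h and 1.53 and 2.10 at 2 days, and was not called (adjusted p = 0.49 and 0.65, limma).

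The inhibitors encoded by *Tnfaip3* and *Nfkbia*, both textbook targets of NF-kappaB, were not called at either time. *Tnfaip3* (ENSMUSG00000019850, mm9 chr10:18720716-18735463, minus strand) encodes a ubiquitin-editing enzyme that ends receptor signalling. The pairs of CPM values were 4.83 and 12.30 before SE, 11.03 and 14.66 at 6 h after SE, and 10.81 and 10.70 at 2 days after SE. Pre-SE mice overlapped with both SE groups, and SE 6 h mice lay just above the SE 2 days mice, without overlap. The logFC was 0.71 ± 0.42 (standard error) at 6 h (95% interval -0.22 to 1.65, adjusted p = 0.40, limma) and 0.47 ± 0.42 at 2 days (-0.46 to 1.41, adjusted p = 0.61, limma). The second reversed to -0.19 without pre-SE replicate 1.

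*Nfkbia* (ENSMUSG00000021025, mm9 chr12:56590398-56593634, minus strand) encodes IkappaB-alpha, which holds NF-kappaB in the cytoplasm. Its values, in CPM, were 16.83 and 22.47 before SE, 26.72 and 51.25 at 6 h after SE, and 28.92 and 36.82 at 2 days after SE. All 4 SE mice lay above both pre-SE mice, but SE 6 h replicate 2 stood well above replicate 1. The logFC was 0.92 ± 0.42 (standard error) at 6 h (95% interval -0.02 to 1.87, adjusted p = 0.29, limma) and 0.74 ± 0.42 at 2 days (-0.20 to 1.68, adjusted p = 0.38, limma). Marker genes of the choroid plexus (5 of 7 listed), an epithelium beside the hippocampus, summed to 4031 CPM in SE 6 h replicate 2 and 8.88 CPM in replicate 1, and to 1713 CPM in pre-SE replicate 2 and 12.6 CPM in replicate 1. *Nfkbia* was higher in the mouse with the higher sum in 4 of the 5 groups, as was *Tnfaip3*, and whether choroid plexus RNA has a part in these values was not tested.

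*Nfkbiz* (ENSMUSG00000035356, mm9 chr16:55811488-55839012, minus strand) encodes IkappaB-zeta, a nuclear protein of the IkappaB family that acts with NF-kappaB on a subset of its target genes. In CPM, its values were 6.59 and 9.13 before SE, 25.88 and 17.13 at 6 h after SE, and 24.08 and 33.72 at 2 days after SE. Both SE groups lay above pre-SE mice and overlapped with each other. The logFC was 1.43 ± 0.39 (standard error) at 6 h (adjusted p = 0.092, limma) and 1.86 ± 0.39 at 2 days (adjusted p = 0.022, limma), where the mean was 3.68-fold that of pre-SE mice. The call at 2 days was lost without either pre-SE mouse or without SE 2 days replicate 2 (highest adjusted p = 0.21, limma).

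Of the 3 genes for NF-kappaB subunits, *Nfkb2* alone was called by limma, at both times. *Nfkb2* (ENSMUSG00000025225, mm9 chr19:46379227-46386580, plus strand) encodes the precursor from which the non-canonical pathway makes a DNA-binding subunit, the usual partner of RelB. It had 0.31 and 0.33 CPM in pre-SE mice, from 9 and 17 tags. At 6 h after SE the values were 3.69 and 3.49 CPM, and at 2 days 5.43 and 3.96 CPM. The 3 groups did not overlap. The mean was 11.2-fold that of pre-SE mice at 6 h (logFC 3.14 ± 0.47 standard error, adjusted p = 0.0075, limma) and 14.7-fold at 2 days (logFC 3.50 ± 0.47, adjusted p = 0.0027, limma). The call at 2 days held in all 21 alternatives, and that at 6 h was lost without pre-SE replicate 1 or either SE 6 h mouse (highest adjusted p = 0.0597, limma). With a pseudocount of 1 CPM the logFC was 1.80 at 6 h and 2.10 at 2 days. *Nfkb2* overlaps *Psd* on the opposite strand.

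*Relb* (ENSMUSG00000002983, mm9 chr7:20191566-20214787, minus strand) encodes RelB. Its CPM values were 3.31 and 3.93 before SE, 7.95 and 8.02 at 6 h after SE, and 6.74 and 11.27 at 2 days after SE. All SE mice lay above both pre-SE mice. The logFC was 1.12 ± 0.36 (standard error) at 6 h (adjusted p = 0.14, limma) and 1.25 ± 0.36 at 2 days (adjusted p = 0.072, limma). Neither passed the threshold in limma, and DESeq2 alone of the 21 alternatives called both (adjusted p = 0.020 at 6 h and 0.0084 at 2 days, DESeq2).

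*Nfkb1* (ENSMUSG00000028163, mm9 chr3:135247619-135354511, minus strand) encodes the precursor of the DNA-binding subunit of the canonical pathway. The CPM values of the gene were 14.80 and 12.36 before SE, 35.25 and 32.20 at 6 h after SE, and 14.12 and 24.60 at 2 days after SE. SE 6 h mice lay above both other groups, and SE 2 days replicate 1 lay within the pre-SE range. The logFC was 1.31 ± 0.31 (standard error) at 6 h (2.48-fold, adjusted p = 0.051, limma) and 0.46 ± 0.31 at 2 days (adjusted p = 0.46, limma). The adjusted p at 6 h lay just above the threshold, and 8 of 21 alternatives called it, edgeR and DESeq2 among them.

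**Figure D3:**
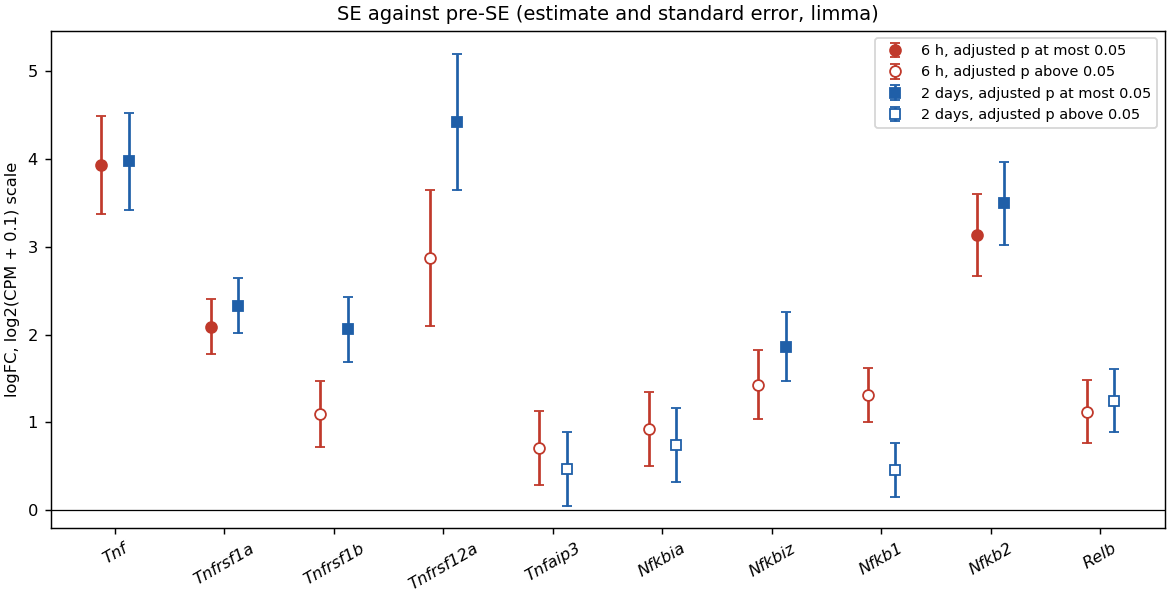
LogFC of SE against pre-SE on the log2(CPM + 0.1) scale for the 10 genes at 6 h (circles) and 2 days (squares), with bars of 1 standard error and filled symbols for an adjusted p of at most 0.05. *Tnf*, *Tnfrsf1a* and *Nfkb2* are filled at both times, and *Tnfaip3*, *Nfkbia*, *Nfkb1* and *Relb* at neither.

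Between SE 6 h and SE 2 days mice, 0 of the 10 genes were called in either direction, where 3.14% of all genes were called higher and 1.11% lower. With p under 0.05 before adjustment, 1 member was higher (12.8% of all genes) and 1 lower (7.29% of all genes). *Tnfrsf1b* was the higher one (logFC 0.96 ± 0.37 standard error, adjusted p = 0.19, limma), and *Nfkb1* the lower one (-0.85 ± 0.31, adjusted p = 0.16, limma). edgeR called 0 members, beside 319 of the 15851 genes higher and 157 lower. DESeq2 also called 0, beside 707 genes higher and 586 lower. A fit of these groups alone called 1, *Tnfrsf12a* (logFC 1.55, adjusted p = 0.046, limma), beside 560 genes higher and 203 lower.

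LEV treatment was compared with SE alone at the same time, which asks whether the drug lowered these transcripts. At 6 h the values of most of the 10 genes were lower with LEV, but none was called. The median logFC of the members was -0.62, beside 0.04 over all genes, and 9 of 10 estimates were negative, beside 44.2% of all genes. Both LEV mice lay below both SE mice in 7 of the 10 genes, and the same was seen in 13.4% of all genes. limma called 0 members lower, with 0.0126% of all genes called lower, and all adjusted p were 1. At an unadjusted p under 0.05, limma found 1 member lower, *Tnfrsf1b*, beside 3.42% of all genes. edgeR and DESeq2 also called 0 members, and of all 15851 genes edgeR called 0 and DESeq2 69 lower and 6 higher.

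*Tnfrsf1b* had 1.56 and 1.90 CPM in SE + LEV 6 h mice, beside 2.47 and 4.45 CPM without LEV and 1.35 and 1.66 CPM before SE. The LEV mice overlapped with pre-SE mice and lay below the SE mice. The mean was 0.50 of that in SE 6 h mice, and the logFC was -0.91 (95% interval -1.74 to -0.08, unadjusted p = 0.035, adjusted p = 1, limma). The SE + LEV 6 h values of this gene rest on 47 and 20 tags.

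*Nfkbiz* had 12.93 and 10.53 CPM in SE + LEV 6 h mice. Both values lay below the 25.88 and 17.13 CPM seen without LEV and above 9.13 CPM, the higher pre-SE value. The logFC was -0.85 (95% interval -1.72 to 0.03, limma). *Tnfrsf12a* had 24.95 and 34.25 CPM with LEV against 51.16 and 61.53 CPM, with a logFC of -0.94 (-2.67 to 0.79). The LEV mice of both genes lay between the pre-SE and the SE 6 h mice.

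*Tnf* had 2.33 and 1.80 CPM in SE + LEV 6 h mice and a logFC of -0.63 (95% interval -1.87 to 0.60, limma). *Nfkb2* had 3.02 and 1.52 CPM and a logFC of -0.71 (-1.76 to 0.33). *Tnfrsf1a* had 16.35 and 16.22 CPM and a logFC of -0.35 (-1.05 to 0.34). All 3 genes were lower in both LEV mice than in both SE mice and still above both pre-SE mice. *Nfkb1*, with 27.45 and 25.80 CPM and a logFC of -0.34 (-1.02 to 0.34), lay there too. *Nfkbia* had 27.71 and 21.16 CPM (logFC -0.61, -1.55 to 0.33), and *Tnfaip3* had 9.47 and 11.67 CPM (-0.27, -1.21 to 0.66). Both overlapped with SE 6 h mice, as did *Relb* with 6.65 and 10.15 CPM (0.04, -0.75 to 0.83). The marker sum of infiltrating myeloid cells was 12.8 to 24.2 CPM in SE + LEV 6 h mice, below the 39.9 to 42.4 CPM of SE 6 h mice. The markers did not all go one way. *Cd14* (logFC -1.69) and *Msr1* (-1.48) were lower in both LEV mice, *S100a8* (0.44) and *S100a9* (0.29) had positive estimates, and 0 of the 5 were called (limma, median logFC -0.11). The part of these markers in the values was not tested.

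At 2 days the 2 LEV mice differed from each other. Replicate 2 lay below replicate 1 in 9 of the 10 genes, with a median difference of -0.79 on the log2(CPM + 0.1) scale, whereas over all genes 44.7% were below and the median was 0.07. *Tnfrsf12a* had 143.68 CPM in replicate 1 and 17.91 CPM in replicate 2. Marker genes of infiltrating myeloid cells summed to 80.5 CPM in replicate 1 and 16.0 CPM in replicate 2, and those of the choroid plexus to 1509 and 27.1 CPM. Microglial markers summed to 1162 and 919 CPM, and the part of these sums in the difference was not tested.

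In the comparison of SE + LEV 2 days with SE 2 days mice, limma again called 0 members lower, as for all genes (0%), and all adjusted p were 1. The median logFC of the members was -0.53, beside 0.04 over all genes, and 9 of 10 were negative, beside 44.6% of all genes. Both LEV mice lay below both SE mice for 3 members, *Tnfaip3*, *Nfkbiz* and *Nfkb2*, and for 12.2% of all genes. The 1 member with an unadjusted p under 0.05 was *Nfkbiz*, beside 1.39% of all genes in the lower direction. edgeR and DESeq2 called 0 members, and of all 15851 genes edgeR called 0 and DESeq2 4 lower and 0 higher.

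*Nfkbiz* had 17.53 and 8.46 CPM in SE + LEV 2 days mice against 24.08 and 33.72 CPM in SE 2 days mice. Replicate 2 lay within the range of the pre-SE mice. The mean was 0.450 of that of SE 2 days mice, and the logFC was -1.22 (95% interval -2.09 to -0.35, unadjusted p = 0.011, adjusted p = 1, limma). *Nfkbiz* was thus lower in both LEV mice than in both SE mice at each time, as was *Nfkb2*, although no call was made at either.

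*Nfkb2* had 3.89 and 1.77 CPM in SE + LEV 2 days mice, with a logFC of -0.79 (95% interval -1.84 to 0.25, limma), and *Tnfaip3* had 8.78 and 6.37 CPM, with -0.52 (-1.45 to 0.42). *Tnfrsf12a*, with the values given above, had a logFC of -1.69 (-3.42 to 0.04), and its replicate 1 lay between the 2 SE mice. The value was -3.19 without replicate 1 of the LEV mice and -0.19 without replicate 2. *Tnf* had 3.20 and 1.48 CPM (-0.59, -1.82 to 0.65). *Tnfrsf1a* had 23.62 and 16.14 CPM (-0.33, -1.03 to 0.36). *Relb* had 7.04 and 6.00 CPM (-0.42, -1.21 to 0.37). *Nfkbia* had 33.93 and 14.87 CPM (-0.54, -1.48 to 0.40), and its logFC reversed to 0.06 without replicate 2 of the LEV mice. In these 5 genes 1 LEV mouse lay within the SE range.

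*Tnfrsf1b* had 7.11 and 6.00 CPM in SE + LEV 2 days mice, on both sides of the 6.44 and 6.69 CPM of SE 2 days mice (logFC -0.01, 95% interval -0.84 to 0.82, limma). *Nfkb1* had 17.47 and 23.49 CPM (0.12, -0.56 to 0.80), both within the SE range. The estimate for *Tnfrsf1b* was thus -0.91 at 6 h and near 0 at 2 days, and the difference between the effects was 0.90 (95% interval -0.27 to 2.08, adjusted p = 1, limma). The difference of the LEV effect between 2 days and 6 h was called for 0 of the 10 genes by limma, edgeR and DESeq2. Of the 10, 0 had an unadjusted p under 0.05 (limma), beside 251 of the 15851 genes higher and 126 lower. Of all genes, limma and edgeR called 0 in either direction, and DESeq2 called 3 higher.

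**Figure D4:**
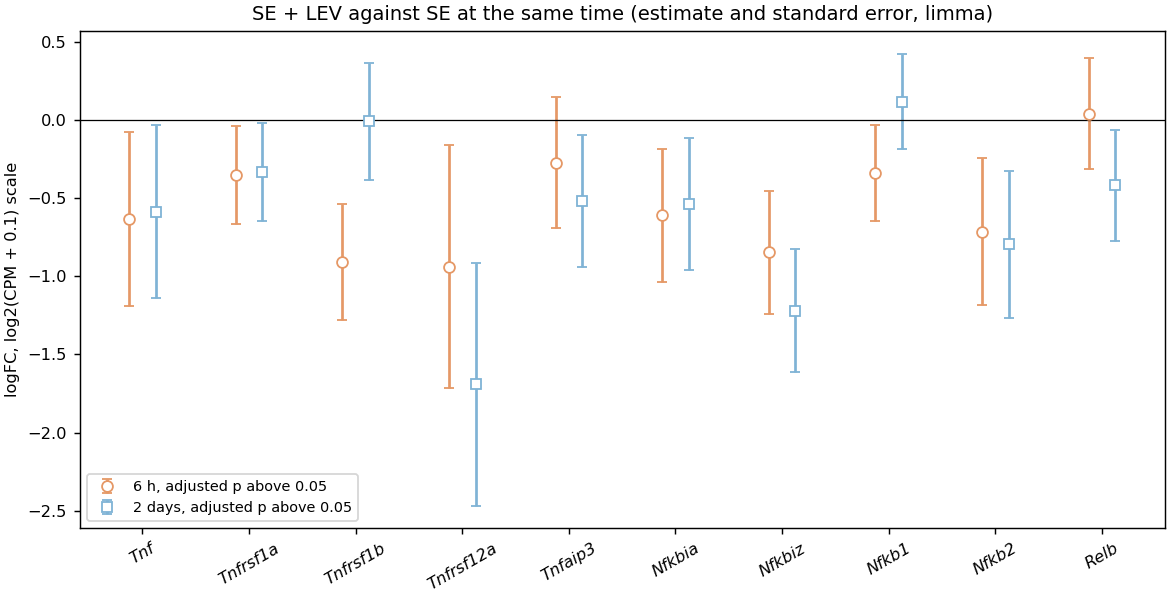
LogFC of SE + LEV against SE at the same time on the log2(CPM + 0.1) scale for the 10 genes at 6 h (circles) and 2 days (squares), with bars of 1 standard error. Open symbols mark an adjusted p above 0.05, which holds for all 20 values, and 18 of them are below 0.

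The LEV groups were also compared with pre-SE mice, which they share with the SE groups. In SE + LEV 6 h mice 1 member, *Tnf*, was called higher (logFC 3.30 ± 0.56 standard error, adjusted p = 0.044, limma), beside 0.315% of all genes. This call held in 7 of 21 alternatives only, with adjusted p up to 0.27. *Tnfrsf1a* (1.74 ± 0.31, adjusted p = 0.059, limma) and *Nfkb2* (2.42 ± 0.47, adjusted p = 0.075, limma) had an adjusted p just above the threshold. In SE + LEV 2 days mice 4 members were called higher, beside 2.83% of all genes. They were *Tnf* (3.39 ± 0.56, adjusted p = 0.0098, limma), *Tnfrsf1a* (2.00 ± 0.31, adjusted p = 0.0079), *Tnfrsf1b* (2.05 ± 0.37, adjusted p = 0.016) and *Nfkb2* (2.70 ± 0.47, adjusted p = 0.013). Without pre-SE replicate 2 (1.13% of all genes) or SE + LEV 2 days replicate 1 (0.669%), limma called 0 of them, and without SE + LEV 2 days replicate 2 (3.9%) it called 5, with *Tnfrsf12a* added. A fit of these groups alone called 0, as for all genes (0%).

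Between the LEV groups, *Tnfrsf1b* was higher at 2 days than at 6 h (logFC 1.86 ± 0.37 standard error, adjusted p = 0.033, limma), the 1 member called, beside 2.06% of all genes. Its call held in 11 of 21 alternatives. edgeR called 0 members, beside 213 of the 15851 genes higher, and DESeq2 called 1, beside 520 genes higher.

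Across the 5 groups, the means of *Tnf*, *Tnfrsf1a* and *Nfkb2* followed 1 order, from pre-SE through SE + LEV 6 h, SE + LEV 2 days and SE 6 h to SE 2 days. In *Tnf* and *Tnfrsf1a* only the step from pre-SE to SE + LEV 6 h separated neighbouring groups without overlap. In *Nfkb2* the step from SE 6 h to SE 2 days did so too. The means of *Tnfaip3* ran from 7.58 CPM in SE + LEV 2 days mice to 12.8 CPM in SE 6 h mice, with pre-SE mice in second place from below. *Relb* had its lowest mean in pre-SE mice, and *Nfkb1* ran from pre-SE through SE 2 days and both LEV groups to SE 6 h.

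Over the 10 libraries and 13991 genes, the genes whose log2(CPM + 0.1) values were most like those of *Tnf* were *Cd14* (Pearson r = 0.97), a coreceptor of bacterial lipopolysaccharide, *Tnfrsf1a* (0.97) and the chemokine gene *Ccl4* (0.96). For *Nfkb2* they were *Cd14* (0.97), *Ccl4* (0.97) and *Ier3* (0.97), an immediate early response gene. *Tnfrsf12a* was most like *Hbegf* (0.98), which encodes a growth factor of the EGF family, *Col12a1* (0.98) and *Nes* (0.98), the gene of the intermediate filament nestin. *Nfkbiz* was most like *Gm17709* (0.96), *Hspb1* (0.96), a small heat shock protein gene, and *March3* (0.95). *Cd14* is also in the myeloid marker list. The libraries share their groups, so these values describe likeness across 5 groups of 2 mice and carry no test.

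The other genes of the pathway were read from lists of 6 roles, in which 74 genes were tested. SE 6 h mice had 13 of them called higher (beside 2.76% of all genes) and SE 2 days mice 20 (beside 5.07% of all genes). Of the 74 genes, 0 were called lower, beside 0.202% and 0.593% of all genes. Most calls were among the textbook NF-kappaB target genes, where 9 of 17 passed at 6 h and 12 of 17 at 2 days, all upward, with median logFC values of 2.74 and 2.71. *Ccl2*, a chemokine for monocytes, had 0.28 and 0.37 CPM before SE and 14.75 and 28.91 CPM at 6 h (logFC 5.62, adjusted p = 0.0030, limma). *Icam1*, an adhesion molecule for leukocytes, had 1.52 and 1.59 CPM before and 8.98 and 15.76 CPM at 6 h (2.86, adjusted p = 0.0092, limma). *Gadd45b*, a stress sensor, went from 5.14 and 4.0 CPM to 67.93 and 87.29 CPM (4.06, adjusted p = 0.0014, limma). *Il6* was listed at 0 in both pre-SE mice, and its SE 6 h mice had 2.34 and 1.16 CPM. *Cxcl10*, a chemokine for T cells, was called at 2 days (6.62, adjusted p = 0.0027) and not at 6 h (0.88, adjusted p = 0.65, limma).

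**Figure D5:**
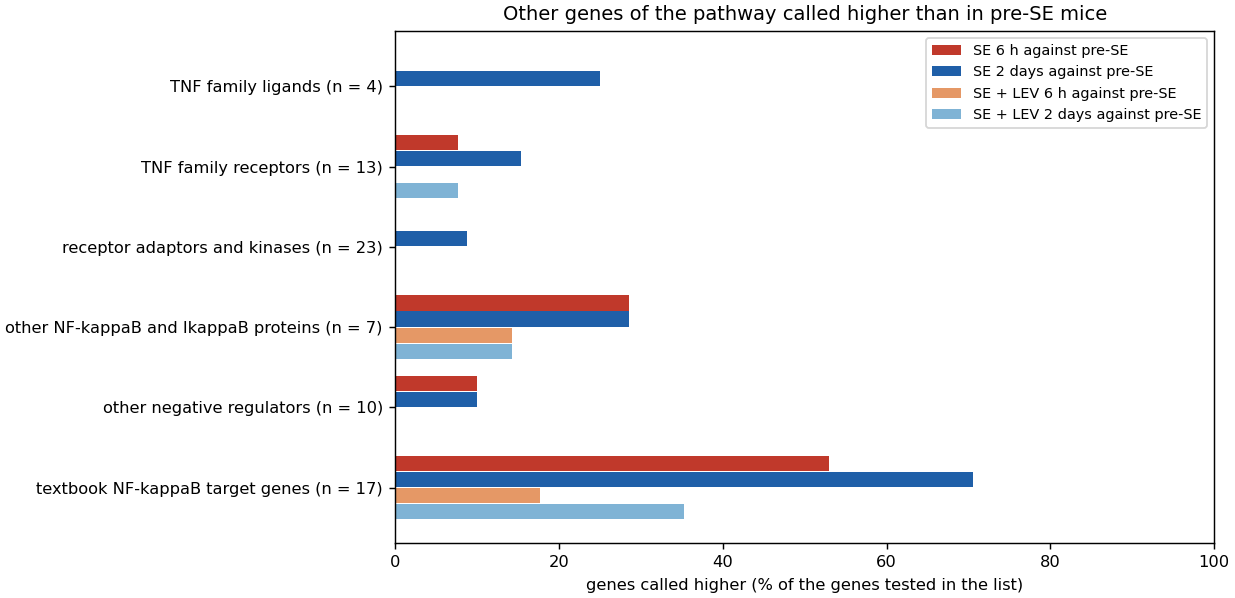
Share of the tested genes of each pathway list that limma called higher than in pre-SE mice, in % of the genes tested, for SE and SE + LEV mice at both times. Of the 17 textbook target genes, 9 and 12 were called higher in SE mice at 6 h and 2 days, and 3 and 6 in the corresponding LEV mice. Of all genes tested, 2.76% and 5.07% were called higher in SE mice, and 0.315% and 2.83% in LEV mice.

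Among the other NF-kappaB and IkappaB proteins, 2 of 7 genes were called higher at each time, *Bcl3* and *Rel*. *Bcl3*, which encodes a nuclear IkappaB protein, had CPM values of 0.31 and 0.17 before SE, 7.89 and 9.18 at 6 h and 22.51 and 27.85 at 2 days (logFC 4.69 and 6.24, adjusted p = 0.0026 and 7e-04, limma). Its SE + LEV 2 days mice had 28.30 and 7.11 CPM, with replicate 2 the lower, as in most of the 10 genes. *Rel*, the gene of the subunit c-Rel, rose by a logFC of 1.62 and 1.40 (adjusted p = 0.020 and 0.026, limma). *Rela*, the gene of the main activating subunit, had 22.21 and 25.20 CPM before SE and 30.21 and 33.37 CPM at 6 h (0.42, adjusted p = 0.40, limma), and was called at neither time. The inhibitor genes *Nfkbib* (0.23, adjusted p = 0.68 at 6 h) and *Nfkbie* (0.33, adjusted p = 0.78, limma) were not called either.

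The receptor adaptors and kinases held 0 calls of 23 at 6 h and 2 at 2 days, beside 2.76% and 5.07% of all genes called higher. The 2 were *Casp8* (logFC 2.38, adjusted p = 0.033, limma) and *Ripk3* (under 0.6 CPM in every mouse), both known from cell death signalling. *Adam17*, which encodes the protease that releases TNF, was not called (-0.08 at 6 h and 0.55 at 2 days, adjusted p = 0.91 and 0.29, limma). Of 13 other receptors of the family, *Fas*, a death receptor gene, was called at both times (2.38 and 1.91, adjusted p = 0.0061 and 0.0097, limma) and *Tnfrsf11b*, which encodes a decoy receptor, at 2 days. Of 4 other ligand genes tested, *Tnfsf9* was called at 2 days, with 1.61 and 0.91 CPM against 0.03 and 0.06 CPM. Of 10 other negative regulators, *Zfp36*, whose product destabilises *Tnf* mRNA, was called at both times (3.40 and 3.50, adjusted p = 0.020 and 0.011, limma). *Tnip1* (-0.37 and 0.08) and *Cyld* (-0.36 and -0.65), which restrain the same ubiquitin signals as *Tnfaip3*, were not called (adjusted p = 0.47 and 0.90, and 0.47 and 0.17, limma).

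With LEV, 0 genes of any of the 6 lists were called against SE at either time by limma. Of all 15851 genes, limma called 2 lower (0.0126%) and 0 higher at 6 h, and 0 in either direction at 2 days. At these shares, a count of 0 does not set the lists apart from other genes. The target genes had median logFC values of -0.89 (6 h) and -0.96 (2 days), and 3 and 1 of their 17 estimates were positive. Over all genes the median was 0.04 at both times, and 44.2% and 44.6% of the estimates were negative. The medians of the other lists lay between -0.31 and -0.06 at 6 h and between -0.48 and 0.08 at 2 days. Against pre-SE mice, 3 target genes were called higher in SE + LEV 6 h mice and 6 in SE + LEV 2 days mice, and *Bcl3* was called in both. Of all genes, 0.315% and 2.83% were called higher in these comparisons.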

How the data were processed

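The authors mapped CAGE tags of the hippocampus to mm9 with BWA 0.7.17 and HISAT2 2.0.5, formed tag clusters with RECLU, left out those below 0.1 CPM, and deposited 1 CPM value per gene in every mouse. How clusters were summed to genes, and whether strand was used, is not given in the sources used here. For all 10 libraries the values were whole multiples of 1 tag within 0.005 CPM, which gave totals of 10540698 to 51710968 tags. A gene was tested if 2 or more libraries had 0.1 CPM or more. The test was limma (version 3.58.1, R version 4.3.3) on log2(CPM + 0.1) values, with 5 group means, a mean-variance trend and two-sided tests, and the fit was tested on simulated data. edgeR 4.0.16 and DESeq2 1.42.0 on the recovered tags, pseudocounts of 0.01, 0.5 and 1, other filters and scalings, a replicate block and each mouse left out were alternatives.

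Besides the 10 genes, the genes called in each pathway list and a set of named regulators were described, as were the 3 genes most alike in pattern to each of *Tnf*, *Tnfrsf12a*, *Nfkbiz* and *Nfkb2*. The genes and lists were chosen with earlier results of these data known. Genes were matched to the GENCODE vM1 annotation of mm9 for coordinates. Means are given without SD where both mice are printed. Python 3.11.15 was used for tables and figures.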

Additional observations from a re-analysis of the deposited data

How the results depend on the processing

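For the 10 genes in 9 comparisons, 1880 values were computed under 21 alternatives (20 for the difference between LEV effects, which needs all groups). Of these, 1754 kept their direction and their side of the threshold, 28 newly passed it, 50 no longer passed it and 48 reversed. The 56 logFC values compared above with their errors or intervals account for 9 of the reversals. The remaining 39 were among 34 other values, of members with an unadjusted p of 0.05 or more, and 0 reversals were of a called gene. Counts of members called against SE alone and of members called lower were 0 under all 21 alternatives, and those of the difference between LEV effects under all 20. Of all genes, the main fit called 0.202% lower in SE 6 h and 0.593% lower in SE 2 days against pre-SE mice. Few of all genes were called against SE alone either. DESeq2 called 69 lower and 6 higher at 6 h, and 4 lower and 0 higher at 2 days. In SE 6 h against pre-SE mice, 3 members were called higher, 8 with DESeq2 and 1 to 6 with 1 mouse left out. In SE 2 days mice it was 6, and 3 to 6 with 1 mouse left out. DESeq2 called *Relb* there in addition to these 6, and 1260 of the 15851 genes higher. In SE 2 days against SE 6 h mice, the 2 groups alone gave 1 call in place of 0. In SE + LEV 6 h against pre-SE mice, the 1 call became 0 with pseudocounts of 0.01, 0.5 and 1, with no mean-variance trend, with only the groups compared and with edgeR, 3 with DESeq2 and 0 to 3 with 1 mouse left out. In SE + LEV 2 days mice the 4 calls became 0 with only the groups compared and 0 to 5 with 1 mouse left out. Between the LEV groups the 1 call became 0 with only the groups compared and with edgeR, and 0 to 1 with 1 mouse left out. Of all genes, those pseudocounts, the fit without a trend, the groups alone and edgeR called 14 to 56 higher in SE + LEV 6 h against pre-SE mice. DESeq2 called 354 genes higher there. Between the LEV groups, 96 genes were called higher with only the groups compared and 213 with edgeR. The fits of only the groups compared and those that leave out a mouse use fewer samples, and beyond that the cause was not tested.

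Leaving out 1 mouse moved the logFC against SE alone by over 1.5 times for 7 of the 10 genes at 6 h and for all 10 at 2 days. *Relb* in SE + LEV 6 h against SE 6 h mice (logFC 0.04) had -0.0167 with median-of-ratios scaling, -0.0074 with DESeq2 and -0.26 to 0.34 with 1 mouse left out. With 1 mouse left out, *Tnfaip3* ran from -0.19 to 1.14 in SE 2 days against pre-SE mice. In SE + LEV 2 days against SE 2 days mice, *Nfkbia* ran from -1.13 to 0.056, *Nfkb1* from -0.28 to 0.52 and *Tnfrsf1b* from -0.13 to 0.11.

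Same-numbered mice are different animals, and the labels do not say what the replicate number stands for, so the main fit used no pairing. With the replicate block, limma called 3 members higher in SE 6 h and 6 in SE 2 days against pre-SE mice, and the block changed no call. The deviations of same-numbered mice from their group means correlated, over 15851 genes, from -0.44 (SE + LEV 2 days with pre-SE) to 0.34 (SE 6 h with pre-SE).

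Depth limits the lowest values. *Tnf* rested on 7 and 2 tags in pre-SE mice and 19 tags in SE + LEV 6 h replicate 2, where *Nfkb2* rested on 16.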

Other observations

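Within the 5 groups, *Nfkbiz* was higher in the mouse with the higher marker sum of infiltrating myeloid cells in 5 of 5 groups, and *Nfkbia* and *Nfkb2* in 4 of 5. The other members did so in 2 or 3 groups. For the choroid plexus sum, *Tnfaip3*, *Nfkbia* and *Nfkb2* did so in 4 of 5 groups and *Nfkb1* in 1 of 5. These counts were made after the values were seen and carry no test.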
